A study of Drosophila melanogaster with 4 samples.

Results

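Genes for the mitochondrial respiratory chain and the ATP synthase (complexes I to V) were followed in RNA-seq of *Drosophila melanogaster* larvae that lack HP1a and of wildtype larvae. The family takes in every gene whose symbol starts with ND- (complex I), Sdh (complex II), UQCR- (complex III), COX (complex IV) or ATPsyn (complex V), on all chromosomes. This gave 86 of the 13568 genes with a value in the files. Of these, 63 were standard subunits, 18 were paralogs (duplicate copies) whose symbol ends in L, 4 were paralogs with a number after the L (*ND-51L1*, *ND-51L2*, *COX6AL2*, *COX7AL2*), and *Sdhaf3* was an assembly factor. *ND-MNLL* was counted as a standard subunit, since its last letter belongs to the name of the standard protein. With the symbol rule taken literally, it would be a 19th paralog.

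The family, and the step of setting the paralogs apart, were selected on the difference between HP1a mutant and wildtype larvae in these same libraries. The differences between genotypes are therefore given as a description of the genes one by one, and no p-value over the family or over a group of its genes is read as a result.

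Complexes I to IV of the inner mitochondrial membrane pass electrons from NADH and succinate to oxygen and pump protons, and complex V uses the proton gradient to make ATP. Most of their subunits are encoded in the nucleus and the remainder in the mitochondrial genome, so a working complex needs many separate genes to be expressed together. In *Drosophila*, many of the nuclear genes have a second copy that is known to be used mainly in the testis. HP1a, encoded by *Su(var)205*, binds methylated histone H3 in pericentric heterochromatin and over the genes of chromosome 4, and is known both for gene silencing and for keeping some heterochromatic genes active.

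Total RNA of larvae of the third instar was sequenced in 4 rRNA-depleted libraries, 2 per genotype. The HP1a mutant larvae carried alleles 04 and 05 of *Su(var)205* in trans and came from parents with each allele over a GFP balancer, by picking larvae without GFP. The labels describe them as lacking HP1a, and maternally supplied HP1a is known to carry such larvae through early development. The wildtype larvae were Oregon R, so that genotype and stock cannot be told apart, and both were kept at 25°C and 70% humidity. The replicates carry only a number in the labels, and if they were not separate collections the p-values cover technical spread only. In a whole larva, fewer cells of a type and less RNA per cell cannot be told apart.

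Values are FPKM (fragments scaled by transcript length and sequencing depth), summed per gene over its RefSeq transcripts. The libraries held between 7320733 and 7656033 fragments on transcripts of status OK, as implied by the bounds that Cufflinks gave for each value. The targeted gene *Su(var)205* had 27.8 and 20.1 FPKM in the HP1a mutant libraries, against 125 and 137 FPKM in the wildtype libraries (log2 fold change -2.42, standard error 0.22, adjusted p = 0.00275 from limma). Most genes were lower in the mutant, with a median log2 fold change of -0.84 over the 9445 genes tested. After the libraries were brought to a common median FPKM (rescaled) this median was -0.02, and rescaling raised the log2 fold changes of tested standard subunits by 0.70 to 0.92 and those of tested paralogs by 0.55 to 0.85. The larvae also differed in markers of stage: all 7 salivary gland genes (6 of them *Sgs* glue genes) were lower in both mutant libraries, with a summed level of 78.1 and 497 FPKM in the mutant against 50436 and 53935 FPKM in wildtype. Of the other marker lists, all 8 imaginal disc and dividing cell genes and 4 of 5 neural genes were lower in both mutant libraries. Such falls were common, since 69.1% of all tested genes had both mutant libraries below both wildtype libraries. As deposited, limma called 1 of 4 tested disc and dividing cell genes and 2 of 3 tested neural genes lower. With libraries rescaled it called 0 in either list. Of 6 fat body genes 4 were higher and 2 (*Lsp2* and *Fbp1*) lower in both mutant libraries, and limma called 3 higher and 1 lower. The gene called lower, *Fbp1*, had 32.5 and 19.0 FPKM in the mutant, against 4333 and 4127 FPKM in wildtype. The part of these markers in the results below was not tested.

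The standard subunits and their paralogs went opposite ways in the HP1a mutant. Of the 63 standard subunits, 59 had both HP1a mutant libraries above both wildtype libraries, 1 (*ND-B8*) had both below, and in 3 (*ND-B22*, *UQCR-11* and *ATPsynCF6*) the libraries overlapped. All 22 paralogs had both HP1a mutant libraries below both wildtype libraries. Summed over the 63 standard subunits, the level was 26156 and 19366 FPKM in the HP1a mutant libraries, against 8665 and 9056 FPKM in the wildtype libraries, which is 2.57 times higher in the mutant mean. Summed over the 22 paralogs it was 39.1 and 45.2 FPKM in the HP1a mutant, against 299 and 377 FPKM in wildtype, which is 8.02 times lower in the mutant mean. These sums use FPKM as deposited, and the sizes of the rise and of the fall depend on the scaling. With libraries rescaled, the median log2 fold change was 2.13 over the 60 tested standard subunits and -1.86 over the 18 tested paralogs.

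The test covered 79 of the 86 genes, those with a mean log2(FPKM + 1) above 1.4 and the status OK in all 4 libraries. At an FDR of 0.01 in limma, 33 of the 60 tested standard subunits were called higher and 1 was called lower. Among all tested genes, 6.99% were called higher and 34.3% lower, and for separation of the libraries without a test the shares were 17.3% (mutant above) and 69.1% (mutant below). Among the tested genes of the family these counts were 57 of 60 standard subunits above, and 18 of 18 paralogs below. Of the 18 tested paralogs, 16 were called lower and none higher. However, 9 of these 16 had a mutant mean below the cutoff and entered the test only through their wildtype values, so that they had to differ, and the count and the median of the tested paralogs are a description only. Of the 9 paralogs with both means above the cutoff, 7 were called lower. *ND-B8* likewise passed only through wildtype. The median log2 fold change was 1.22 over the 60 standard subunits and -2.53 over the 18 paralogs, beside -0.84 over all tested genes. With 79 of the 9445 tested genes, the family held 5.0% of all genes called higher (33 of 660) and 0.52% of all called lower (17 of 3244).

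These counts depended on the scaling and on single libraries. With libraries rescaled, 56 standard subunits were called higher and 1 lower, and 13 paralogs were called lower, against 12.5% higher and 10.1% lower among all tested genes. With quantile normalization, 38 standard subunits were called higher and none lower, and 9 paralogs were called lower, against 10.6% higher and 9.18% lower among all tested genes. Without wildtype replicate 1 or without wildtype replicate 2, limma called 0 genes of the family and 0 of all genes, since the lone wildtype library is then taken to vary like the mutant libraries. In those fits, 33 and 39 of the family were still higher, and 17 and 18 lower, at an unadjusted p under 0.05. Without HP1a mutant replicate 2, 50 were called higher.

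**Figure D1:**
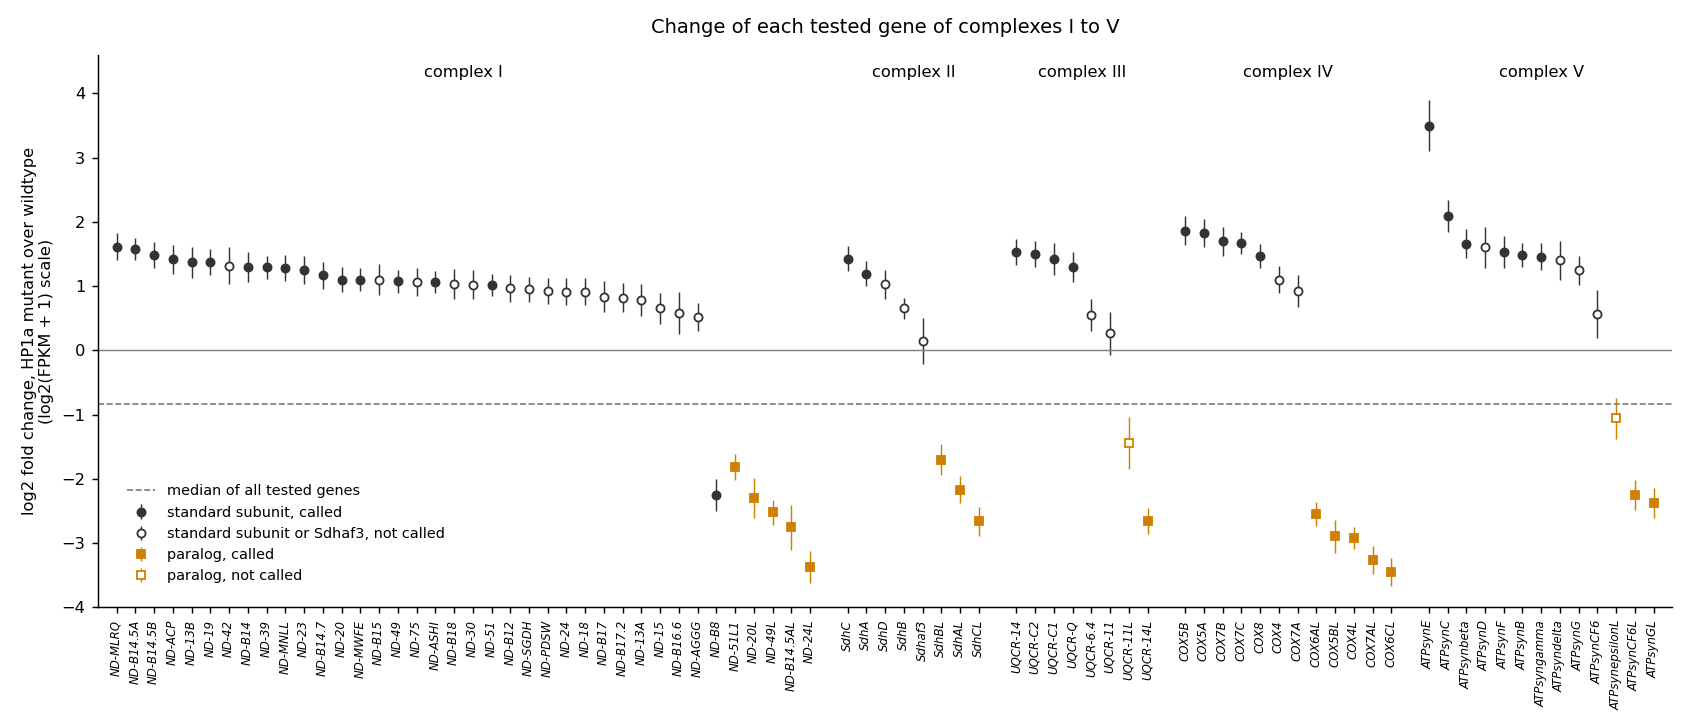
Log2 fold change (HP1a mutant over wildtype, on the log2(FPKM + 1) scale) of each of the 79 tested genes, by complex, with bars for the standard error from limma. Filled symbols passed an FDR of 0.01, circles are standard subunits or *Sdhaf3*, squares are paralogs, and the dashed line is the median of all 9445 tested genes. All tested standard subunits except *ND-B8* lie above 0 and all tested paralogs lie below it.

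In complex I (NADH dehydrogenase), where electrons enter from NADH, 32 of the 34 standard subunits had both mutant libraries above both wildtype libraries, and 16 of 33 tested were called higher. The summed level was 7447 and 5712 FPKM in HP1a mutant larvae, against 2902 and 2942 FPKM in wildtype larvae. The subunits that carry the flavin and the iron-sulfur clusters had log2 fold changes close to 1. *ND-51*, which binds NADH and the flavin, had 199 and 173 FPKM in the mutant libraries, against 93.0 and 89.0 FPKM in the wildtype libraries, and rose by 1.02 ± 0.17 (log2 fold change ± SE). *ND-49*, a core subunit near the quinone site and one of the 2 genes of the family on chromosome 4 (588915 to 591420, genome Release 5), had 163 and 135 FPKM in the mutant, against 69.6 and 70.4 FPKM in wildtype, and rose by 1.08 ± 0.18. *ND-20*, which holds the last cluster before the quinone, had 203 and 159.8 FPKM in the mutant, against 80.7 and 86.2 FPKM in wildtype, and rose by 1.10 ± 0.19.

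*ND-75*, the largest core subunit, had 131 and 95.7 FPKM in the HP1a mutant libraries, against 53.2 and 52.7 FPKM in the wildtype libraries. Its libraries did not overlap, but the log2 fold change of 1.06 ± 0.21 missed the FDR (adjusted p = 0.0134 from limma). The same held for *ND-30*, another core subunit, with 127 and 89.95 FPKM in the mutant against 51.9 and 52.4 FPKM in wildtype (adjusted p = 0.0173 from limma). In both genes the gap between the 2 mutant libraries was wider than that between the wildtype libraries.

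The 3 largest rises in complex I were those of accessory subunits, which surround the catalytic core. *ND-MLRQ*, whose human counterpart was later assigned to complex IV, had 1126 and 865 FPKM in the mutant, against 337 and 307 FPKM in wildtype, and rose by 1.61 ± 0.21. *ND-B14.5A* had 279 and 255 FPKM in the mutant, against 94.2 and 84.1 FPKM in wildtype (1.57 ± 0.17), and *ND-B14.5B* had 421 and 339 FPKM in the mutant against 124 and 145 FPKM in wildtype (1.49 ± 0.20). *ND-B14.5A* was 5th of 34 in the mutant by mean FPKM and 13th in wildtype, a larger move in the order than that of any other subunit of complex I.

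At the other end stood *ND-B8*, *ND-AGGG* and *ND-B16.6*. *ND-B8* (2L, 4454664 to 4455207) had 1.97 and 1.06 FPKM in the HP1a mutant libraries, against 10.004 and 11.5 FPKM in the wildtype libraries, and fell by 2.25 on the log2 scale (adjusted p = 0.00354 from limma), a call that quantile normalization ended (adjusted p = 0.0122 from limma). It is the lowest standard subunit in all 4 libraries, and its mutant values rest on an implied 3.79 and 1.96 fragments. Its locus overlaps that of *Gs1l*, which had 59.0 and 44.0 FPKM in the mutant against 18.9 and 18.0 FPKM in wildtype, and the part of this overlap in the value of *ND-B8* was not tested. *ND-AGGG*, on the heterochromatic scaffold 3LHet (459586 to 460457), had 81.2 and 61.8 FPKM in the mutant, against 45.3 and 53.0 FPKM in wildtype (log2 fold change 0.52, adjusted p = 0.0905 from limma). *ND-B16.6*, the counterpart of human GRIM-19, had 31.7 and 18.5 FPKM in the mutant against 13.7 and 18.3 FPKM in wildtype, so that 1 mutant library lay just above the higher wildtype library. *ND-B22* was not tested because Cufflinks failed for it in HP1a mutant replicate 1, and it had 189 and 61.4 FPKM in the mutant against 68.1 and 73.9 FPKM in wildtype.

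Complex II (succinate dehydrogenase), which is also an enzyme of the tricarboxylic acid cycle, has 4 subunits, and all 4 had both mutant libraries above both wildtype libraries. *SdhA*, the flavoprotein that oxidizes succinate, had 135 and 108 FPKM in HP1a mutant larvae, against 50.3 and 54.5 FPKM in wildtype larvae, and rose by 1.19 ± 0.19. *SdhC*, a membrane anchor, had 334 and 268 FPKM in the mutant, against 105 and 117 FPKM in wildtype, and rose by 1.42 ± 0.19. The remaining subunits did not pass the FDR. *SdhD*, the other anchor, had 130.4 and 92.2 FPKM in the mutant against 51.6 and 55.2 FPKM in wildtype (adjusted p = 0.0178 from limma), and *SdhB*, the iron-sulfur subunit, had 62.3 and 54.3 FPKM in the mutant against 35.6 and 37.5 FPKM in wildtype (adjusted p = 0.0251 from limma). *Sdhaf3*, which helps to assemble the complex and is no part of it, had 24.2 and 11.9 FPKM in the mutant against 15.6 and 14.9 FPKM in wildtype. Its libraries overlapped, and its log2 fold change of 0.15 turned to -0.33 without HP1a mutant replicate 1.

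In complex III (cytochrome bc1), which passes electrons from ubiquinol to cytochrome c, 5 of the 6 subunits had the libraries apart with the mutant higher, and 4 were called. The core proteins *UQCR-C1* and *UQCR-C2* moved closely together. *UQCR-C1* had 276 and 188 FPKM in the mutant, against 79.8 and 90.4 FPKM in wildtype (1.42 ± 0.25), and *UQCR-C2* had 349 and 275 FPKM in the mutant, against 104 and 114 FPKM in wildtype (1.5 ± 0.20). *UQCR-14* had 877 and 693 FPKM in the mutant, against 275 and 263 FPKM in wildtype, which was the largest log2 fold change of this complex (1.53 ± 0.20). *UQCR-Q* was the least abundant subunit in both genotypes, with 97.7 and 68.2 FPKM in the mutant against 32.7 and 32.6 FPKM in wildtype (1.30 ± 0.23).

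The 2 small subunits that were not called were both abundant. *UQCR-6.4*, first of 6 by level in both genotypes, had 1426 and 989.6 FPKM in the HP1a mutant libraries, against 753 and 879.7 FPKM in the wildtype libraries (log2 fold change 0.54, adjusted p = 0.119 from limma). *UQCR-11*, the hinge protein, lies on the scaffold 3LHet (606165 to 606827) and had 398 and 219.6 FPKM in the mutant, against 248 and 245 FPKM in wildtype. One mutant library was above both wildtype libraries and the other below both, and the log2 fold change of 0.26 turned to -0.16 without HP1a mutant replicate 1. *UQCR-11* and *ND-AGGG* are the only 2 standard subunits on 3LHet. Neither was called as deposited, as held for 26 of the 60 tested standard subunits. With libraries rescaled *ND-AGGG* was called higher (log2 fold change 1.43, adjusted p = 0.00532 from limma). *UQCR-11* was not called with libraries rescaled (1.18, adjusted p = 0.0239 from limma).

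Complex IV (cytochrome c oxidase) passes electrons to oxygen. Its catalytic core is encoded by the mitochondrial genes *COX1*, *COX2* and *COX3*, which were not analysed here, so the values below are of the nuclear subunits around it. All 8 had both mutant libraries above both wildtype libraries, 5 of the 7 tested were called higher, and the summed level was 7436 and 5691 FPKM in the mutant against 2236 and 2232 FPKM in wildtype. *COX5A* had 1345 and 978 FPKM in the mutant, against 327 and 318 FPKM in wildtype, and rose by 1.83 ± 0.22. It was 1st of 8 by mean level in the mutant and 4th in wildtype. *COX5B* had 691 and 494 FPKM in the mutant, against 157 and 164 FPKM in wildtype, and rose by 1.86 ± 0.23.

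The small membrane subunits *COX7B*, *COX7C* and *COX8* also rose. *COX7B* had 1278 and 943 FPKM in the HP1a mutant libraries, against 354 and 322 FPKM in the wildtype libraries (1.70 ± 0.22). *COX7C* had 1143 and 962 FPKM in the mutant, against 331 and 326 FPKM in wildtype (1.67 ± 0.18), and *COX8* had 1102 and 881 FPKM in the mutant against 349 and 361 FPKM in wildtype (1.47 ± 0.19). *COX4* and *COX7A* were apart in all libraries but missed the FDR. *COX4*, a regulatory subunit, had 726 and 561 FPKM in the mutant against 307 and 287 FPKM in wildtype (adjusted p = 0.0107 from limma). *COX7A* had 598 and 403 FPKM in the mutant against 256 and 258 FPKM in wildtype (adjusted p = 0.0295 from limma). *COX6B* was not tested, because Cufflinks failed in 3 of the 4 libraries, and was listed at 554 and 469 FPKM in the mutant and at 155 and 196 FPKM in wildtype.

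**Figure D2:**
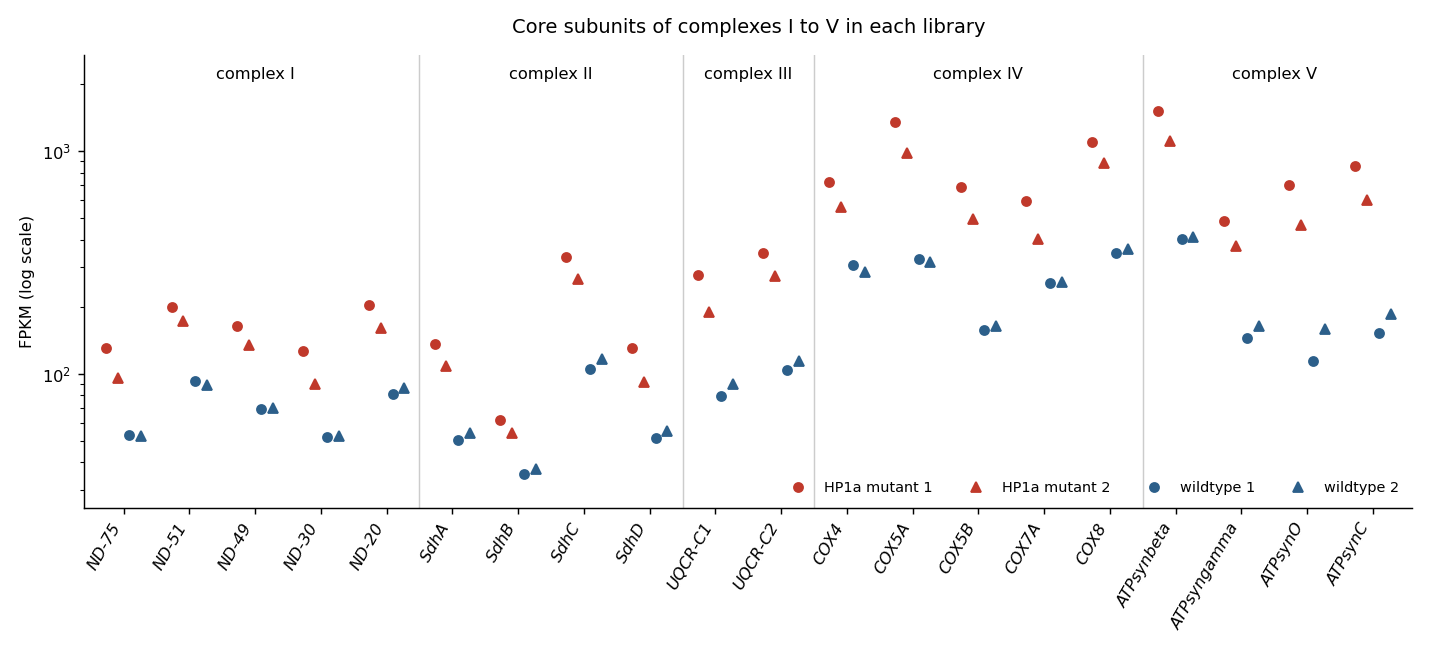
FPKM (log scale) of 20 standard subunits in each of the 4 libraries, by complex. HP1a mutant libraries are red and wildtype libraries blue (circles replicate 1, triangles replicate 2). Those of complex IV are nuclear subunits around the catalytic core, not part of it. In each of the 20 genes both mutant points lie above both wildtype points, and the mutant points lie further apart than the wildtype points in most genes.

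Complex V (ATP synthase) had the largest ratio of summed means among complexes I to V, at 3.22. Its 11 standard subunits summed to 7187 and 5007 FPKM in HP1a mutant larvae, against 1792 and 1993 FPKM in wildtype larvae. Of 11 subunits, 10 had the libraries apart with the mutant higher, and 6 of 10 tested were called higher. In the catalytic head, *ATPsynbeta*, on chromosome 4 (1052440 to 1055175), had 1506 and 1105 FPKM in the mutant, against 403 and 411 FPKM in wildtype, and was the most abundant subunit in both genotypes. Its log2 fold change of 1.66 ± 0.22 was within the range of the euchromatic subunits of the complex. A second RefSeq row at this locus, which the reference pairs with no gene and which was not added in, had 807 and 552 FPKM in the mutant against 213 and 227 FPKM in wildtype. *ATPsyngamma*, the turning stalk, had 483 and 376 FPKM in the mutant against 145 and 164 FPKM in wildtype (1.46 ± 0.21). *ATPsynO*, which joins head and outer stalk, was not tested, because both mutant libraries had the status LOWDATA, and it was listed at 702 and 464 FPKM in the mutant and at 114 and 158 FPKM in wildtype.

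The 2 largest rises of the whole family were in the membrane part of complex V. *ATPsynE* (3R, 10152669 to 10153457), a small membrane subunit, had 435 and 225 FPKM in the mutant, against 22.5 and 31.9 FPKM in wildtype, and rose by 3.50 ± 0.39. It was the least abundant of the 11 subunits in wildtype and 9th in the mutant. *ATPsynC* (3R, 27041864 to 27045357), which forms the rotor ring, had 858 and 603 FPKM in the mutant, against 153 and 185 FPKM in wildtype, and rose by 2.09 ± 0.25. Its locus also holds *RNaseP:RNA*, which was lower in the mutant at 6581 and 7384 FPKM, against 18985 and 18357 FPKM in wildtype. *ATPsynB*, *ATPsynF* and *ATPsynG* had log2 fold changes of 1.48, 1.53 and 1.24, the last of which missed the FDR (adjusted p = 0.0106 from limma).

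The subunits of the outer stalk and of the central stalk that were not called had wide mutant libraries. *ATPsynD* had 419 and 246 FPKM in the mutant against 96.4 and 114 FPKM in wildtype (adjusted p = 0.0124 from limma), and *ATPsyndelta* had 295 and 175 FPKM in the mutant against 80.5 and 91.1 FPKM in wildtype (adjusted p = 0.0163 from limma). *ATPsynCF6*, a coupling factor of the outer stalk, had 136 and 67.9 FPKM in the mutant against 59.0 and 70.8 FPKM in wildtype, so that HP1a mutant replicate 2 lay between the wildtype libraries (log2 fold change 0.57, adjusted p = 0.246 from limma).

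**Figure D3:**
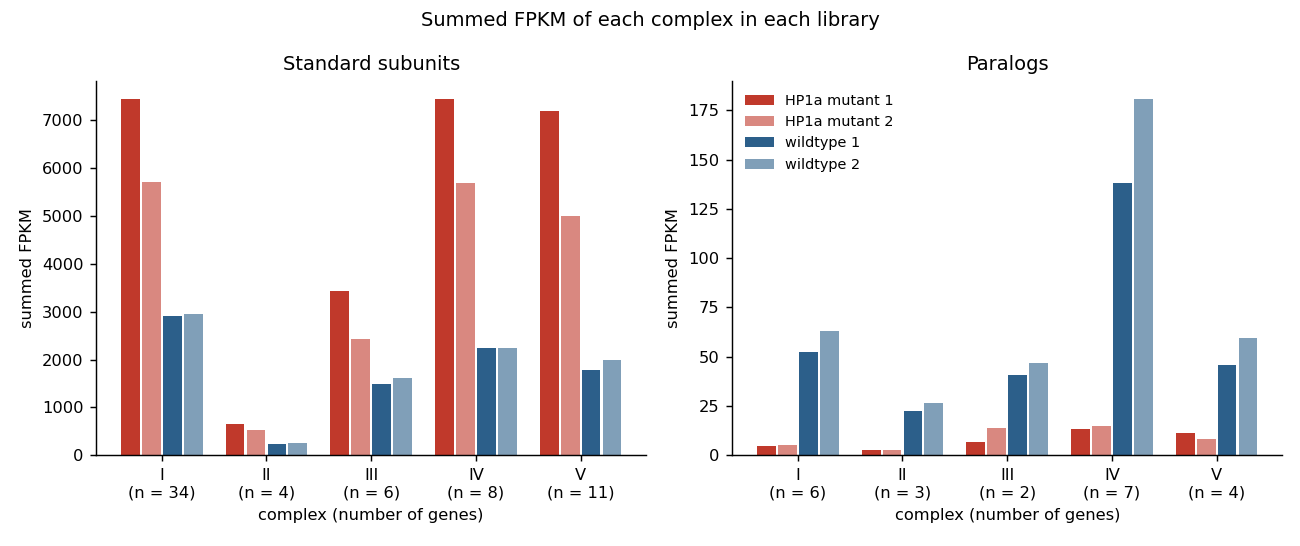
Summed FPKM of the standard subunits (left) and of the paralogs (right) of each complex in each library, with the number of genes under each complex. Bars start at 0, red bars are HP1a mutant libraries and blue bars wildtype libraries. For standard subunits the mutant bars are higher in every complex, and for paralogs the wildtype bars are higher in every complex. The axes of the panels differ in scale.

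Between complexes, the ratio of the summed means (mutant over wildtype) was 2.25 for complex I, 2.34 for complex II, 1.88 for complex III, 2.94 for complex IV and 3.22 for complex V. The sums are a description, since an exact permutation test (two-sided) of 2 libraries against 2 cannot go below p = 0.33. The median log2 fold change was 1.06 in complex I, 1.11 in complex II, 1.36 in complex III, 1.67 in complex IV and 1.51 in complex V. Differences between complexes were not tested.

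The order of the subunits by level was largely the same in the 2 genotypes. Across the 63 standard subunits, the mean log2(FPKM + 1) in the mutant and in wildtype had a Pearson r of 0.91 and a Spearman rho of 0.94, where the genes of a library share its depth and its scaling. Of the 63, 45 had a mean at least 2 times higher in the mutant and 59 at least 1.5 times higher, with a median ratio of 2.41. By chromosome arm, the tested standard subunits had a median of 1.06 on X, 0.92 on 2L and 1.17 on 2R, while 3L and 3R both had 1.42. It was 1.37 for the 2 genes on chromosome 4 and 0.39 for the 2 genes on 3LHet, which are too few for a comparison.

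The 2 HP1a mutant libraries also differed from each other in this family, a comparison that does not involve wildtype. All 63 standard subunits were higher in HP1a mutant replicate 1 than in replicate 2, against 62.3% of all tested genes, and the median ratio of replicate 1 to replicate 2 was 1.36, against 1.13 over all tested genes. Of the 22 paralogs, 10 were higher in replicate 1. Between the wildtype libraries, 46 of 63 standard subunits were higher in replicate 2, against 61.0% of all tested genes. The median ratio of wildtype replicate 2 to replicate 1 was 1.08, against 1.04 over all tested genes. For the summed level, the spread between the mutant libraries (26156 and 19366 FPKM) was smaller than the gap to wildtype (8665 and 9056 FPKM). This did not hold in every gene. In *ND-B22*, which was not tested, mutant replicate 1 was 3.08 times replicate 2, and the ratio of means between genotypes was 1.76.

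Whether reads were counted by strand is not given in the sources used here, and 28 of the 63 standard subunits overlap another transcript, which for 26 of them belongs to another named gene. Of the 35 with no overlapping transcript, 33 had both mutant libraries above both wildtype libraries. Of the paralogs, *UQCR-11L*, *COX5BL*, *COX6AL*, *COX6AL2*, *ND-49L* and *ND-51L1* also overlap another named gene. All of these neighbours except *Acsl*, which overlaps *UQCR-11L*, were lower in both mutant libraries. The part of these overlaps in the paralog values was not tested. Of the 28 standard subunits with over 1 RefSeq row, 58 of 73 rows had a higher mean in the mutant and 15 a lower one, among them a row of *ATPsynE* (0.863 and 1.93 FPKM in the mutant, against 2.39 and 5.61 FPKM in wildtype) and a row of *ND-MWFE* (1.88 and 0.427 FPKM in the mutant against 6.36 and 6.07 FPKM in wildtype).

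The paralogs were expressed far below their standard partners, and their share was lower in the mutant. In wildtype a paralog made up between 0.622% and 23.3% of the FPKM of the pair (mean of 2 libraries, median over 22 pairs 9.64%), and in the mutant between 0% and 2.99% (median 0.499%). In all 22 pairs the share was lower in both mutant libraries than in both wildtype libraries. This largely restates the opposite moves of paralogs and partners given above. The pairs are also not all separate, since *ND-51*, *levy* and *COX7A* each serve as partner more than once. Mutant values of the paralogs rest on few fragments, between 0 and 19.4 per gene and library with a median of 7.5, while wildtype values rest on a median of 67.

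**Figure D4:**
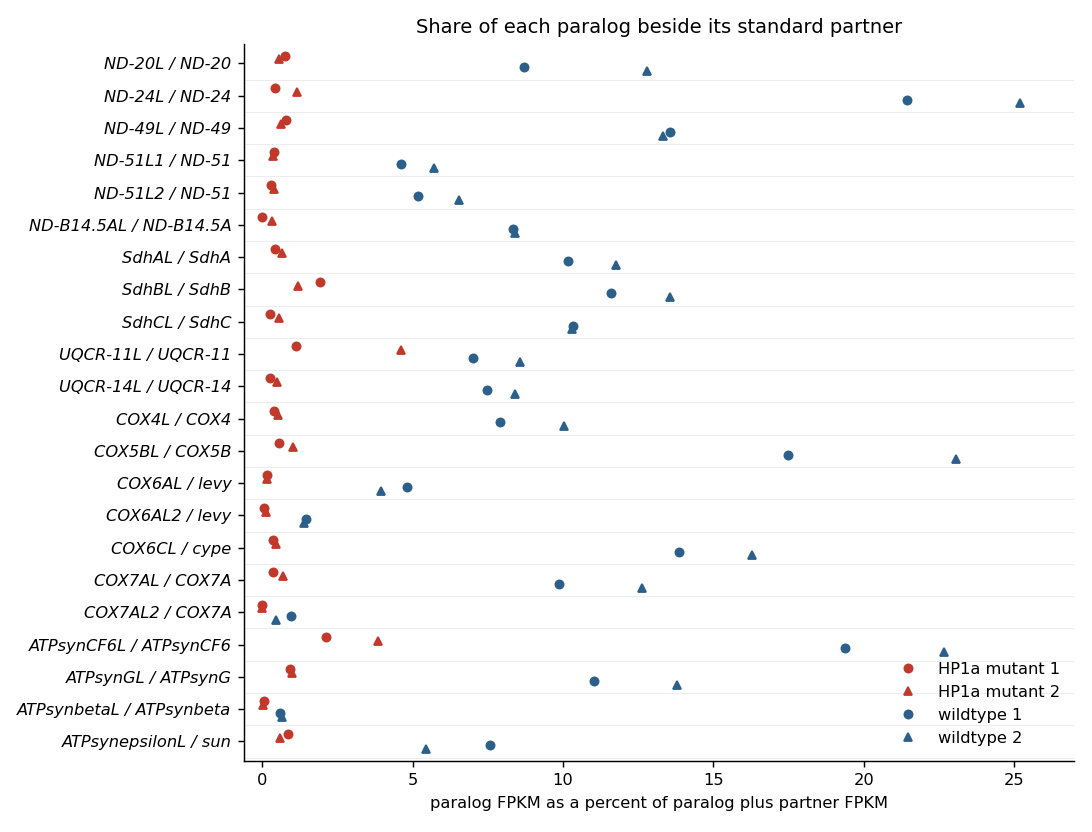
FPKM of each paralog as a percent of the summed FPKM of paralog and standard partner, in each library (HP1a mutant red, wildtype blue, circles replicate 1, triangles replicate 2). In all 22 pairs the mutant points lie left of the wildtype points, and the widest wildtype shares are those of *ND-24L*, *ATPsynCF6L* and *COX5BL*.

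All 5 tested paralogs of complex IV were called lower, as they were with libraries rescaled and with quantile normalization. For 1 of them, *COX6AL*, the mutant mean was below the cutoff. *COX6CL* (2L, 5817893 to 5818393) had 3.05 and 2.63 FPKM in the HP1a mutant libraries, against 34.6 and 48.2 FPKM in the wildtype libraries, and fell by 3.45 on the log2 scale, while its partner *cype* had 873 and 548 FPKM in the mutant, against 215 and 248 FPKM in wildtype. *COX7AL* had 2.13 and 2.85 FPKM in the mutant against 28.0 and 37.3 FPKM in wildtype (-3.26 ± 0.22), *COX4L* had 2.93 and 3.04 FPKM in the mutant against 26.4 and 31.9 FPKM in wildtype (-2.92 ± 0.17), and *COX6AL*, the copy of *levy*, had 1.06 and 0.733 FPKM in the mutant against 10.3 and 9.69 FPKM in wildtype (-2.54 ± 0.19). *COX5BL* had 4.02 and 5.15 FPKM in the mutant against 33.2 and 49.1 FPKM in wildtype (-2.90 ± 0.26). The groups of libraries were far apart in each of these genes.

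In 2 of these pairs the paralog lies next to its partner. *COX5BL* (2L, 6559431 to 6560133) starts 122 bases beyond *COX5B* (6557800 to 6559308), yet fell while *COX5B* rose, a difference of log2 fold changes (paralog minus partner) of -4.76. *COX7AL* (3R, 4169402 to 4170032) lies 2638 bases from *COX7A* (4165666 to 4166763), with a difference of -4.19. *SdhCL* and *SdhC* lie 93428 bases apart on 3R, with a difference of -4.09.

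In complex I, 6 paralogs were lower in both mutant libraries. The 5 tested were called lower, but all 5 passed the cutoff only through wildtype, and the calls fell to 3 with libraries rescaled and to 2 with quantile normalization. *ND-24L* had 0.533 and 1.11 FPKM in the mutant, against 15.4 and 20.1 FPKM in wildtype (-3.37 ± 0.25), while *ND-24*, an iron-sulfur subunit, had 129 and 94.3 FPKM in the mutant against 56.3 and 59.6 FPKM in wildtype and was not called. *ND-24L* made up 0.786% of the pair in the mutant and 23.3% in wildtype, the highest wildtype share of any paralog. *ND-49L* had 1.29 and 0.866 FPKM in the mutant against 10.9 and 10.8 FPKM in wildtype (-2.52 ± 0.19), and *ND-20L* had 1.55 and 0.921 FPKM in the mutant against 7.69 and 12.7 FPKM in wildtype (-2.30 ± 0.31). *ND-B14.5AL* was listed at 0 and 0.844 FPKM in the mutant and had 8.58 and 7.73 FPKM in wildtype (-2.75 ± 0.35). Of the 2 copies of *ND-51*, *ND-51L1* had 0.762 and 0.608 FPKM in the mutant against 4.5 and 5.38 FPKM in wildtype (-1.82 ± 0.20), and *ND-51L2*, not tested for its status in HP1a mutant replicate 2, had 0.596 and 0.707 FPKM in the mutant against 5.09 and 6.22 FPKM in wildtype.

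The 3 paralogs of complex II were called lower, but all 3 passed the cutoff only through wildtype, and 2 were called with libraries rescaled and none with quantile normalization (adjusted p between 0.01 and 0.0902 from limma). *SdhCL* had 0.874 and 1.51 FPKM in HP1a mutant larvae against 12.1 and 13.4 FPKM in wildtype larvae (-2.66 ± 0.22), *SdhAL* had 0.584 and 0.727 FPKM in the mutant against 5.68 and 7.27 FPKM in wildtype (-2.17 ± 0.21), and *SdhBL* had 1.21 and 0.664 FPKM in the mutant against 4.67 and 5.88 FPKM in wildtype (-1.70 ± 0.25). In complex III, *UQCR-14L* had 2.33 and 3.39 FPKM in the mutant against 22.2 and 24.1 FPKM in wildtype (-2.66 ± 0.20). *UQCR-11L* had 4.47 and 10.6 FPKM in the mutant against 18.7 and 22.9 FPKM in wildtype and was not called (-1.44 ± 0.41, adjusted p = 0.0346 from limma). Its locus overlaps *Acsl*, which had 98.8 and 103 FPKM in the mutant against 32.1 and 35.6 FPKM in wildtype.

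In complex V, *ATPsynGL* had 4.94 and 3.85 FPKM in the mutant against 22.7 and 31.8 FPKM in wildtype (-2.38 ± 0.24), and *ATPsynCF6L* had 2.95 and 2.72 FPKM in the mutant against 14.2 and 20.8 FPKM in wildtype (-2.25 ± 0.23). *ATPsynepsilonL*, the copy of *sun*, had 2.68 and 1.39 FPKM in the mutant against 6.27 and 4.24 FPKM in wildtype and was not called (-1.06 ± 0.31, adjusted p = 0.0395 from limma). With quantile normalization its log2 fold change was 0.045. The paralogs below the expression cutoff were not tested. *ATPsynbetaL* had 0.806 and 0.322 FPKM in the mutant against 2.42 and 2.68 FPKM in wildtype, *COX6AL2* had 0.32 and 0.55 FPKM in the mutant against 3.06 and 3.30 FPKM in wildtype, and *COX7AL2* was listed at 0 in both mutant libraries and had 2.49 and 1.21 FPKM in wildtype.

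Of 20 testis markers (spermatocyte and spermatid genes), all 20 were lower in both mutant libraries and 15 of 17 tested were called lower, with a median log2 fold change of -2.77, beside -2.53 for the tested paralogs. Their summed level was 85.0 and 93.5 FPKM in HP1a mutant larvae, against 777 and 946 FPKM in wildtype larvae, and 1 of them (*can*) was at 0 in a mutant library. Of the 17 tested, 3 passed the cutoff only through wildtype. With libraries rescaled 10 of the 17 were called lower (median -1.95), and with quantile normalization 8. Among all tested genes, 69.1% had both mutant libraries below both wildtype libraries. The shares of all tested genes called lower were 34.3% as deposited, 10.1% rescaled and 9.18% with quantile normalization. *Mst87F*, a sperm tail gene, had 23.3 and 26.4 FPKM in the mutant against 248 and 294 FPKM in wildtype, and *dj* had 4.03 and 4.04 FPKM in the mutant against 38.6 and 46.5 FPKM in wildtype. The part of these markers in the falls of the paralogs was not tested. Of 16 muscle markers, all 16 were higher in both mutant libraries and 7 of 11 tested were called higher, with a median of 1.82, beside 1.22 for the standard subunits. Their summed level was 17708 and 15797 FPKM in the mutant, against 4003 and 4548 FPKM in wildtype, and none was at 0. With libraries rescaled 8 of the 11 muscle genes were called higher (median 2.69), and with quantile normalization 7. Among all tested genes, 17.3% had both mutant libraries above both wildtype libraries. The shares of all tested genes called higher were 6.99% as deposited, 12.5% rescaled and 10.6% with quantile normalization. The part of muscle in the rises of the standard subunits was not tested.

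Respiratory genes that the symbols do not take in were higher as well. All 7 other subunits had both mutant libraries above both wildtype libraries, and 4 of 7 were called higher. *Cyt-c1*, an electron carrier of complex III, had 311 and 214 FPKM in the mutant against 64.5 and 66.1 FPKM in wildtype (1.97 ± 0.24), *RFeSP*, the Rieske protein, had 346 and 281 FPKM in the mutant against 119.8 and 127 FPKM in wildtype (1.33 ± 0.19), and *ox*, a small subunit of complex III, had 969 and 653 FPKM in the mutant against 147 and 142 FPKM in wildtype (2.45 ± 0.25). *sun*, the epsilon subunit of complex V, had 311 and 230.2 FPKM in the mutant against 76.7 and 73.5 FPKM in wildtype (1.82 ± 0.21). *blw*, the alpha subunit that pairs with *ATPsynbeta* in the catalytic head, had 582 and 324 FPKM in the mutant against 142 and 156 FPKM in wildtype and missed the FDR (adjusted p = 0.0158 from limma). *cype* and *levy* of complex IV also missed it (adjusted p = 0.0101 and 0.0161 from limma).

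**Figure D5:**
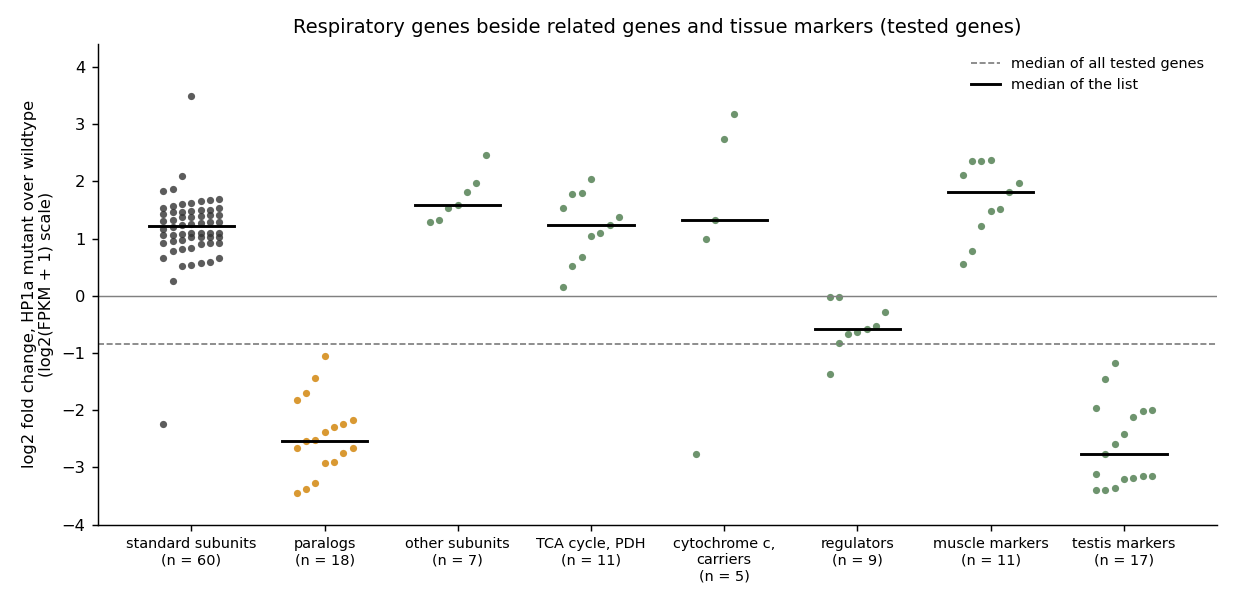
Log2 fold change (HP1a mutant over wildtype, on the log2(FPKM + 1) scale) of the tested genes in each list, 1 point per gene, with the median of each list as a black bar and the median of all tested genes as a dashed line. The standard subunits, the other subunits, the tricarboxylic acid (TCA) cycle and pyruvate dehydrogenase (PDH) genes and the muscle markers have medians between 1.22 and 1.82, and the paralogs and testis markers have medians of -2.53 and -2.77.

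Among enzymes of the tricarboxylic acid cycle and pyruvate dehydrogenase, which feed NADH and succinate to the chain, 11 of 12 had the mutant libraries higher and 4 of 11 tested were called. *Mdh2*, malate dehydrogenase, had 304 and 196 FPKM in the mutant against 66.4 and 74.6 FPKM in wildtype (1.78 ± 0.27), and *Pdha* had 124 and 75.1 FPKM in the mutant against 25.9 and 28.0 FPKM in wildtype (1.80 ± 0.29). The subunits of succinyl-CoA synthetase were not called. *Scsalpha1* had 251 and 228 FPKM in the mutant against 167 and 165 FPKM in wildtype (log2 fold change 0.52, adjusted p = 0.0436 from limma) and was called with libraries rescaled (1.44, adjusted p = 0.00497 from limma). *ScsbetaG* was at 43.9 and 43.0 FPKM in the mutant against 37.7 and 40.6 FPKM in wildtype, and the untested *ScsbetaA* was at 141 and 139 FPKM in the mutant against 152 and 159.8 FPKM in wildtype.

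Cytochrome c, the carrier between complexes III and IV, showed the same split between copies as the subunits. *Cyt-c-p*, the form of most tissues, had 804 and 379 FPKM in the mutant against 77.8 and 85.3 FPKM in wildtype (2.75 ± 0.40), and *Cyt-c-d*, the testis form and also 1 of the testis markers, had 3.83 and 3.68 FPKM in the mutant against 28.2 and 35.0 FPKM in wildtype (-2.77 ± 0.18). *Mpcp1*, a phosphate carrier, had 55.0 and 40.4 FPKM in the mutant against 3.47 and 5.30 FPKM in wildtype (3.18 ± 0.27), and *Mpcp2* had 644 and 501 FPKM in the mutant against 223 and 228 FPKM in wildtype (1.33 ± 0.20). The adenine nucleotide carriers were not tested for their status, with *sesB* listed at 2139 and 1384 FPKM in the mutant and at 432 and 445 FPKM in wildtype, and *Ant2* listed at 2.80 and 0.915 FPKM in the mutant and at 6.97 and 15.6 FPKM in wildtype.

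Of 10 regulators of nuclear respiratory genes and of mitochondrial DNA, none had both mutant libraries above both wildtype libraries and 7 had both below, a share close to the 69.1% of all tested genes. Of 9 tested, 1 was called. *Ets97D*, the counterpart of the mammalian factor NRF-2 alpha, had 2.51 and 3.18 FPKM in the mutant against 9.30 and 8.59 FPKM in wildtype, and fell by 1.38 on the log2 scale, but was not called with libraries rescaled (adjusted p = 0.0921 from limma). *TFAM*, which packages mitochondrial DNA, had 32.3 and 22.7 FPKM in the mutant against 40.3 and 39.0 FPKM in wildtype, and *srl*, the counterpart of PGC-1, had 5.68 and 2.04 FPKM in the mutant against 6.01 and 6.28 FPKM in wildtype. Over the 9 tested regulators the median was -0.58 as deposited and 0.29 with libraries rescaled, and 8 of the 9 changed sign, so that their direction depended on the scaling.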

How the data were processed

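The authors isolated total RNA with Trizol, made rRNA-depleted libraries and deposited FPKM per RefSeq transcript, each with bounds and a status flag. The submitters' processing notes name TopHat and Cufflinks. Not given in the sources used here are versions, masking and use of strand. Coordinates are those of genome Release 5, from the scaffold names.

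Of 22608 transcripts per file, RefSeq tables (Release 6, names only) gave a gene for 21388, and 1220 were left out. Repeat rows of an accession with the same FPKM in every library were counted once. For 50 accessions the repeat rows differed in FPKM, and the differing rows were summed. FPKM were summed per gene. All 4 libraries entered limma 3.58.1 in R 4.3.3 (moderated two-sided test with a trend, log2(FPKM + 1), Benjamini-Hochberg over the 9445 genes with a mean above 1.4 and status OK in all 4 libraries, FDR 0.01). Fold changes are HP1a mutant over wildtype on the log2(FPKM + 1) scale, which understates changes of low genes. Rescaling set the median FPKM of tested genes equal. Fragments were implied from the bounds, taken as 2 standard deviations, and cover counting error only. The fit was tested on simulated data. Summaries and plots used Python 3.11.15, pandas 2.3.3, numpy 2.4.6, scipy 1.17.1 and matplotlib 3.10.9.

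RefSeq holds 91 genes with these symbols. *COX1*, *COX2*, *COX3*, *COX7CL* and *UQCR-6.4L* were not analysed here. The members, gene lists and alternatives were chosen with earlier results of these data known. Genes named one by one are subunits from a fixed list, and the 3 largest rises and falls per complex and class. Each paralog with its partner, untested members and the assembly factor were named too. Other named genes, rows and neighbours were chosen after their values were seen. Promoter and protein sequences were not used here.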

Additional observations from a re-analysis of the deposited data

How the results depend on the processing

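The fit was repeated with rescaled libraries, quantile normalization, another pseudocount (0.1 or 5), a filter at a mean FPKM of 5 or none, any Cufflinks status, each library left out in turn, and a replicate block. Over all genes, 3904 were called, against 2133 with libraries rescaled, 1865 with quantile normalization and between 0 and 4664 with a library left out (0 genes in limma without either wildtype library, with 4689 and 4594 at an unadjusted p under 0.05). In the family, 33 were called higher, against 56 with libraries rescaled and between 0 and 50 with a library left out, and 17 were called lower, against 9 with quantile normalization and between 0 and 17 with a library left out. Tested paralogs ending in L had a median of -2.54 (log2 fold change), against -1.86 with libraries rescaled, -1.59 with quantile normalization, -3.12 with a pseudocount of 0.1 and -1.51 with a pseudocount of 5, and between -2.62 and -2.42 with a library left out. That of the standard subunits, 1.22, was 2.13 with libraries rescaled and between 1.01 and 1.39 with a library left out. Tested genes of the family changed sign in 3 cases: *ATPsynepsilonL* with quantile normalization (0.045), and *UQCR-11* and *Sdhaf3* with a library left out (between -0.16 and 0.69 and between -0.33 and 0.63), both below 0 without HP1a mutant replicate 1. No other tested gene of the family changed sign under these alternatives. Causes were not tested.

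The labels number the replicates, but deviations of same-numbered libraries correlated at only 0.0281, so the numbers were not taken to pair the samples. With a replicate block, 17 of the family were called higher, 16 lower, and 2905 genes in all. Depth limits the paralogs most, since their mutant values rest on at most 19.4 implied fragments.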
